A study of Mus musculus with 4 samples.

Results

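The protein arginine methyltransferase family was followed in mouse embryonic stem cells (mESCs) that survive without telomerase by alternative lengthening of telomeres (ALT). The 9 members, *Prmt1*, *Prmt2*, *Prmt3*, *Carm1*, *Prmt5*, *Prmt6*, *Prmt7*, *Prmt8* and *Prmt9*, were taken by exact match of their gene symbol among the 53379 genes of the deposited tables, and all 9 were found. The family was chosen with the difference between the groups already known, so the members' values are given as a description, without p-values. RNA came from pre-ALT cells at population doubling 100 (PD100) and post-ALT cells at population doubling 800 (PD800), with 2 libraries of each, which the study's methods call biological duplicates. Both groups were Terc-/- cells of DKO741, 1 line derived from E14 mESCs in which both alleles of the telomerase RNA gene *Terc* were targeted and the selection cassette of the first allele was removed with Cre. No agent separates the groups, which differ in time in culture, so that ALT and the number of divisions cannot be told apart. Cells were kept on fibroblast feeders for stocks and grown without feeders for RNA extraction. The labels also give the time points as passages, and name total RNA where the paper speaks of mRNA. Terc+/+ cells and the second line, DKO301, were not analysed here.

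*Terc* had 1 count in PD100 replicate 1 and 0 in the other 3 libraries. The expected counts, RSEM's estimates of read pairs per gene, summed to between 32454121 and 38492149 per library, so that a floor of 3 counts stood at 0.0743 to 0.0934 CPM (counts scaled to library size with TMM factors) and covers counting error only. All 8 markers of embryonic stem cells were measured, with a summed level of 608 to 645 TPM (a transcript level scaled for length and library size) at PD100 and 875 to 918 TPM at PD800, and *Nanog*, *Esrrb*, *Klf4* and *Tfcp2l1* rose and *Dppa3* fell in the test described below, while *Pou5f1*, *Sox2* and *Zfp42* were not called. All 8 primitive endoderm markers fell, with a summed level of 239 to 260 TPM at PD100 against 14.3 to 14.8 TPM at PD800. Of the 8 fibroblast markers 7 could be tested, and *Col1a1*, *Col1a2*, *Col3a1*, *Thy1* and *Twist2* fell, with a summed level of 12.4 to 12.6 TPM at PD100 and 2.72 to 2.90 TPM at PD800, and *Lum* was at or under the floor in every library. These marker shifts separated the groups in the same way as every difference reported here, and their part in the members' values was not tested. In bulk RNA, fewer cells of a type and less RNA per cell cannot be told apart.

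Protein arginine methyltransferases move methyl groups from S-adenosylmethionine to arginine residues of histones, splicing factors and other RNA-binding proteins. Type I enzymes leave asymmetric dimethylarginine, type II enzymes symmetric dimethylarginine and the type III enzyme monomethylarginine. In embryonic stem cells *Carm1* and *Prmt5* are known for their part in pluripotency, whereas *Prmt8*, a close relative of *Prmt1* whose protein is anchored to membranes by a fatty acid, is best known from neurons.

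*Prmt8* and *Prmt1* are similar in sequence, which bears on how well their reads can be told apart. Over the 1109 aligned bases of their coding sequences (1113 bases in *Prmt1* and 1182 bases in *Prmt8*, from GENCODE M21 transcripts), 807 bases or 72.8% were identical, and the longest identical run was 38 bases. The most similar stretch of the length of a sequencing read is printed here in the direction of transcription, with the 5 differing bases in capitals and the other 96 bases identical.
Prmt1, coding bases 427 to 527: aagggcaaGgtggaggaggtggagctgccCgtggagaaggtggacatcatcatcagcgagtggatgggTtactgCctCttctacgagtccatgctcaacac
Prmt8, coding bases 496 to 596: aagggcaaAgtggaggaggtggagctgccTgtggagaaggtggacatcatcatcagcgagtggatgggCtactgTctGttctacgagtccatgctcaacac
Even in this stretch a read of full length crosses 5 differences, and no identical run was as long as a read. A processed pseudogene, AC148336.1, was 91.4% identical to the coding sequence of *Prmt1* over 1038 bases. Its identifier was not found in the deposited tables, so any reads from it may have been counted as *Prmt1*.

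The promoter of *Prmt6*, a member with higher RNA at PD800 that shares its start with an antisense gene described with its values, is shown as listed by RefSeq on GRCm38.p6 (250 bases before to 50 bases after the transcription start, in the direction of transcription), with each CpG in capitals. Of the 9 members 8 had an entry, and *Carm1* had none.
Prmt6 promoter, chr3:110250950-110251249, minus strand: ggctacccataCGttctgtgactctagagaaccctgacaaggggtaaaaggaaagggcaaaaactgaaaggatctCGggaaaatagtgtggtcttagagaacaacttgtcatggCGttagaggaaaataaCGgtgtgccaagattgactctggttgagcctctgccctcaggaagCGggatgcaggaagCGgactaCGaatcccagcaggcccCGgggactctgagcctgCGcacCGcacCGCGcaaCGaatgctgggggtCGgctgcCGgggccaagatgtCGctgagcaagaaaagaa
This window held 16 CpG dinucleotides. RefSeq lists 2 windows for *Prmt8*, with 44 and 43 CpG and a GC content of 79.0% and 78.7%, the most among the 8 listed members, and the first in the table was used. Both lie wholly within *Prmt8* as GENCODE M21 places it, since the GENCODE start is further upstream, so they need not hold the promoter in use in these cells. The windows of *Prmt1*, *Prmt7* and *Prmt5* held 198, 168 and 105 bases of their GENCODE genes, so this limit holds for them in part. Of the 32851 promoters of the same length in the table, 2.25% held at least 44 CpG, and the medians were a GC content of 52.7% and 7 CpG. The *Prmt7* promoter followed with 39 CpG, a number reached by 4.45% of all promoters, while *Prmt1* had 17. DNA methylation was not measured in these libraries.

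The members spanned a wide range of levels, compared here in TPM, which is scaled for transcript length. At PD100 the order was *Prmt1* at 86.8 ± 5.69 TPM (SD, n = 2), *Prmt5* at 48.2 ± 3.16, *Prmt7* at 28.0 ± 1.42, *Prmt3* at 24.2 ± 1.39, *Carm1* at 16.5 ± 3.91, *Prmt9* at 14.3 ± 0.262, *Prmt6* at 6.70 ± 0.544, *Prmt2* at 5.02 ± 0.163 and *Prmt8* at 0.245 ± 0.0495 TPM. *Carm1* and *Prmt9* overlapped between their libraries, and the other neighbours in this order did not. At PD800 the order was *Prmt1* at 71.8 ± 2.23 TPM, *Prmt5* at 32.8 ± 2.21, *Prmt3* at 21.9 ± 0.346, *Prmt7* at 19.5 ± 0.113, *Carm1* at 11.5 ± 1.39, *Prmt6* at 9.55 ± 0.651, *Prmt9* at 8.14 ± 0.120, *Prmt8* at 6.22 ± 0.304 and *Prmt2* at 3.65 ± 0.410 TPM, with no overlap between neighbours. *Prmt8* thus passed *Prmt2*, *Prmt6* passed *Prmt9*, and *Prmt3* and *Prmt7* changed places.

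**Figure D1:**
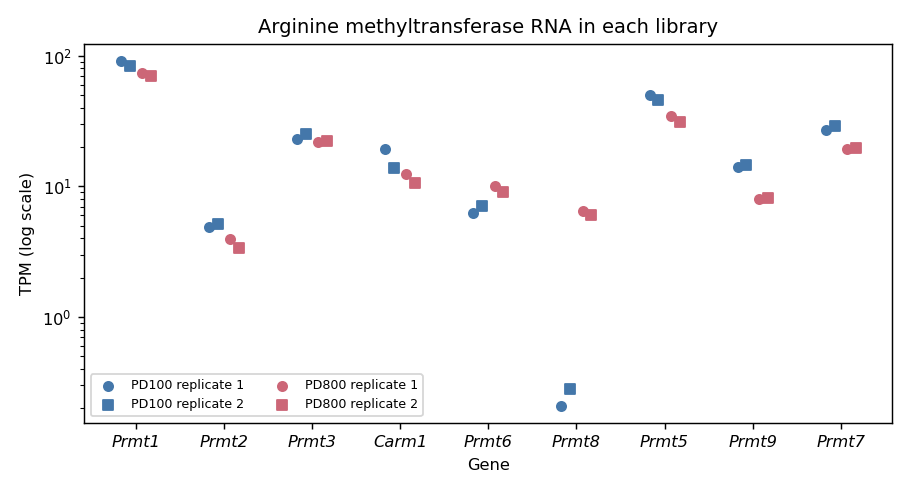
Level of each arginine methyltransferase gene in TPM (vertical axis, log scale), with 1 point per library and 2 libraries per group. *Prmt8* stood at 0.21 and 0.28 TPM at PD100 and at 6.43 and 6.0 TPM at PD800, while no other member differed by as large a factor between the groups.

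All 9 members passed the filter on low counts and were in the fit over 19148 genes (edgeR's quasi-likelihood test on expected counts). Genes that passed a Benjamini-Hochberg adjusted p of 0.01 and changed by more than 2-fold were called. Of the members, 1 was called higher at PD800, *Prmt8*, and none was called lower, beside 6.28% of all tested genes called higher and 8.81% called lower. Among all called genes 41.6% were higher, against 24.4% and 23.1% by limma on log2(TPM + 1) and log2(TPM + 0.1). Without the fold threshold, 2 members were higher, *Prmt8* and *Prmt6*, and 1 lower, *Prmt9*, beside 13.1% and 15.4% of all genes. These counts depended on the processing, with 1 to 2 members higher and 0 to 3 lower over the alternatives, and without either PD800 library *Prmt8* was the 1 member that passed. The CPM values of the groups did not overlap for 7 of 9 members, beside 73.8% of all genes, with 2 members above (37.4% of all genes) and 5 below (36.4%) at PD800. Since the family was chosen with this contrast known, nothing is read from these counts. The median log2 fold change was -0.23 over the 9 members and 0.01 over all tested genes.

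**Figure D2:**
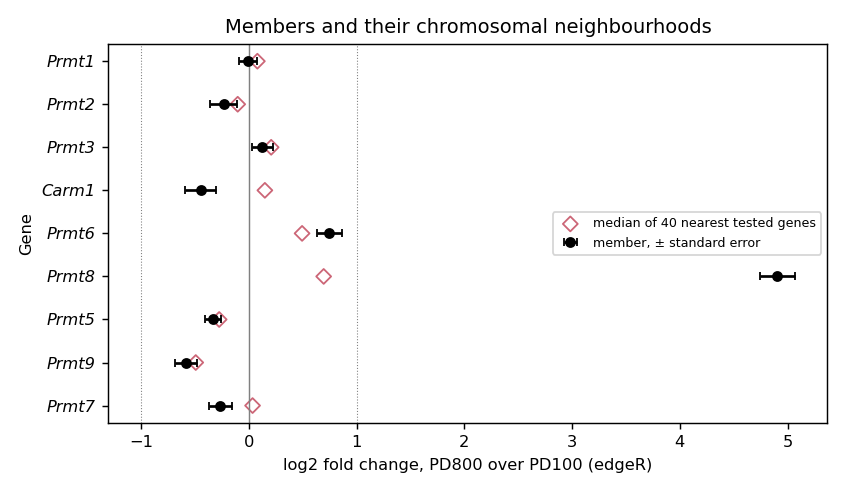
The log2 fold change of each member, PD800 over PD100, estimated by edgeR on counts, with bars of 1 standard error, and the median of its 40 nearest tested genes as an open diamond. Dotted lines mark a fold change of 2 in either direction. *Prmt8* stood at 4.91 and *Prmt6* at 0.75, and the other 7 members lay between -0.58 and 0.13.

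*Prmt8*, a type I enzyme, was the member with the largest fold change. Its expected counts were 28 and 34 in the PD100 replicates 1 and 2, and 919 and 811 in the PD800 replicates. Scaled for depth, these were 0.694 and 1.02 CPM against 25.6 and 25.2 CPM, or means of 0.856 ± 0.230 and 25.4 ± 0.232 CPM (SD, n = 2). Both PD800 libraries thus lay far above both PD100 libraries, which were themselves above the floor of 3 counts. The log2 fold change was 4.91 (SE 0.16), a 30.0-fold higher level at PD800, and it ranked 13 by log2 fold change, with 0.0679% of the tested genes at its value or above, itself included. On the scale of log2(TPM + 1) the difference was 2.53, because the added 1 exceeds the PD100 levels. The ratio of *Prmt8* to *Prmt1* in TPM went from 0.00231 and 0.00338 at PD100 to 0.0876 and 0.0854 at PD800.

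*Prmt8* lies on chromosome 6 of GRCm38, from 127689011 to 127769472 on the minus strand, and has 1 annotated transcript of 2724 bases. On the opposite strand within the gene, the antisense transcript *Gm42738* had 0 counts at PD100 and 12.7 and 8.66 counts at PD800. The pseudogene *Gm42739*, also inside *Prmt8*, had 0 counts at PD100 and 8 and 4 counts at PD800. Strand was not stated for the counting, so the division of reads within such pairs is uncertain, though the antisense counts were small beside those of *Prmt8*.

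Since *Prmt8* is best known from neurons, neural markers were set beside it. All 10 neuron and neural progenitor markers were tested, of which *Tubb3*, *Syt1*, *Stmn2*, *Pax6* and *Sox1* rose and *Nes* fell, with a summed level of 53.4 to 56.0 TPM at PD100 and 79.9 to 85.4 TPM at PD800. *Tubb3* stood at 39.0 and 36.2 CPM at PD100 and 88.4 and 91.1 CPM at PD800, and *Stmn2* at 57.1 and 62.4 against 126 and 119 CPM. *Syt1* stood at 0.272 and 0.210 against 2.06 and 2.46 CPM, and *Nes*, which fell, at 71.5 and 98.2 against 21.8 and 24.3 CPM. The neuronal markers *Rbfox3* and *Snap25* stood between 0.187 and 0.689 CPM in the 4 libraries. Together with *Map2* and *Gad1* they were not called, and 5 of the 10 markers had a log2 fold change under 0. The part of these shifts in the *Prmt8* values was not tested.

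The tested genes nearest to *Prmt8* on either side differed in how they moved. On the side beyond its 3′ end, at 14.8 kb, *Cracr2a*, which encodes a calcium sensor, stood at 0.793 and 0.869 CPM at PD100 and 1.61 and 1.59 CPM at PD800. Its log2 fold change of 0.95 (SE 0.22) did not pass (edgeR, adjusted p = 0.0165), and it turned to -0.03 and -0.14 on the TPM scales with 1 and 0.1 added. On the side beyond its 5′ end, at 2.90 kb, the unclassified transcript *Gm42741* had 1 and 2 counts at PD100, under the floor, and 28 and 21 at PD800. It was called higher, but it passed the filter on low counts only through its PD800 libraries, so its direction was largely fixed beforehand. The call is therefore given without a p-value, and the gene did not enter the test with at least 10 counts in every library. Its summed counts, scaled for depth, were in a ratio of 17.7 (exact 95% interval 5.71 to 88.8, for counting error only). On log2(TPM + 1) it was at 0.26 and not called, and on log2(TPM + 0.1) at 1.45. *Gm42741* and *Prmt8* were both higher in each PD800 library than in either PD100 library, at very different levels. Over the 40 nearest tested genes, which spanned 4.05 Mb, the median log2 fold change was 0.69, beside 0.01 over all tested genes. Of these 40 genes, 34 were above 0, 7 were called higher and 3 lower, beside 6.28% and 8.81% of all tested genes called. The median over the 20 nearest was 0.82. *Prmt8* itself exceeded the median of its 40 neighbours by 4.21 on the log2 scale. The study describes changes in DNA copy number in these cells, which were not analysed here, so their part in these values was not tested.

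**Figure D3:**
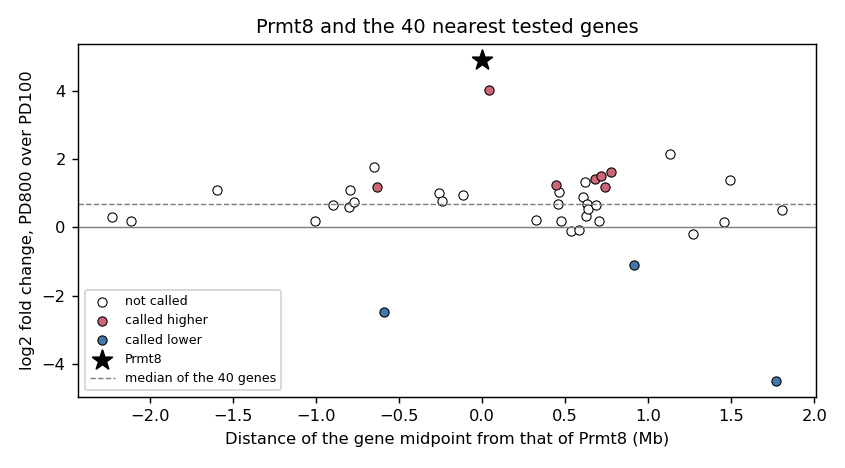
The log2 fold change (PD800 over PD100) of *Prmt8* and its 40 nearest tested genes against the distance of each gene's midpoint from that of *Prmt8* in Mb. *Prmt8* stands at 4.91, well above the neighbours' median of 0.69, and 34 of the 40 neighbours lie above 0.

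The genes most like *Prmt8* in level and pattern, by the root mean square difference of log2(TPM + 0.1) over the 4 libraries, were *Stra8*, *Tcstv1* and *A2m*. *Stra8*, a gene of meiotic entry on the same chromosome, differed by 0.340 and stood at 0.35 and 0.22 TPM at PD100 and 5.17 and 5.47 TPM at PD800. *Tcstv1*, a gene of the 2-cell embryo on chromosome 13, differed by 0.433 and stood at 0.14 and 0.13 TPM against 7.81 and 5.54 TPM. It lies in a region that the study masked when mapping DNA reads, because it holds partial copies of mTALT, the sequence that is amplified at the telomeres of the post-ALT cells, and the division of its reads is uncertain. *A2m*, which encodes the protease inhibitor alpha-2-macroglobulin, also on chromosome 6, differed by 0.525 and stood at 0.49 and 0.38 TPM against 5.38 and 5.04 TPM. These genes were low at PD100 and high at PD800 without overlap, as the measure of likeness requires.

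*Prmt6*, a type I enzyme known for methylating histone H3, was the other member above at PD800. It had 768 and 796 counts at PD100 and 1318 and 1133 at PD800, or 19.0 and 23.8 CPM against 36.7 and 35.3 CPM. The groups did not overlap, and the log2 fold change of 0.75 (SE 0.12), 1.68-fold, stayed under the fold threshold of 2. *Prmt6* lies on chromosome 3 from 110246109 to 110250998 on the minus strand. Its first 984 annotated bases are shared with *C130013H08Rik* on the opposite strand, including 957 coding bases. This antisense gene had 104 and 85.6 counts at PD100 and 399 and 347 at PD800, and rose with a log2 fold change of 2.09 (SE 0.12, edgeR, adjusted p = 0.000113). Because the counting is not stated to use strand, the division of reads between both genes is uncertain. Their summed level was 21.6 and 26.4 CPM at PD100 and 47.8 and 46.1 CPM at PD800, so the sum was also higher at PD800 without overlap. The share of *C130013H08Rik* in that sum was 11.9% and 9.75% at PD100 and 23.2% and 23.4% at PD800. The 40 tested genes nearest to *Prmt6* had a median log2 fold change of 0.49, with 34 of 40 above 0.

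*Prmt1*, which carries out much of the asymmetric dimethylation in mammalian cells, had the highest TPM of the family in every library. It stood at 87.2 and 98.6 CPM at PD100 and at 91.7 and 93.1 CPM at PD800, so the groups overlapped, and its log2 fold change was -0.01 (SE 0.09). The sign of this value turned under some of the alternatives. In TPM, *Prmt1* was at 90.9 and 82.8 at PD100 and at 73.4 and 70.3 at PD800. The TPM scale places most genes lower at PD800, with a median shift over all tested genes of -0.12 on log2(TPM + 1) and -0.21 on log2(TPM + 0.1).

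*Prmt3*, which methylates the ribosomal protein uS5, stood at 61.8 and 72.4 CPM at PD100 and 72.2 and 74.3 CPM at PD800. The lower PD800 library lay just under the higher PD100 library, and the log2 fold change of 0.13 (SE 0.10) turned to -0.14 on both TPM scales. *Prmt2*, a weakly active enzyme and coactivator of nuclear receptors, stood at 11.3 and 13.5 CPM at PD100 and 10.9 and 10.1 CPM at PD800. Its groups did not overlap, but the gap of PD800 replicate 1 to PD100 replicate 1 was smaller than the difference between the PD100 libraries, and the log2 fold change was -0.23 (SE 0.12).

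*Carm1*, a coactivator that methylates histone H3 and transcriptional regulators, differed clearly between the PD100 replicates. It had 2695 and 1699 counts at PD100 and 1633 and 1315 at PD800, or 66.8 and 50.9 CPM against 45.4 and 40.9 CPM. The groups did not overlap, and the log2 fold change was -0.45 (SE 0.14). The value was -0.23 without PD100 replicate 1 and -0.65 without PD100 replicate 2. Single PD100 libraries moved other small differences too, since without PD100 replicate 2 *Prmt7* was at -0.15 and *Prmt2* at -0.12, and without PD100 replicate 1 *Prmt2* was at -0.36 and *Prmt3* at 0.02, while without PD100 replicate 2 *Prmt3* was at 0.22. *Carm1* was also the member whose transcript length, as RSEM weights it by the share of each isoform, differed between the groups, at 2855 and 2750 bases at PD100 against 2496 and 2521 bases at PD800. The mean fell by 10.5% without overlap, beside 8.80% of all tested genes whose length differed by over 10% in either direction without overlap. *Carm1* has 10 annotated transcripts of 485 to 3585 bases, 4 of them protein-coding, and RSEM's shares of single isoforms were not used here. *Yipf2*, a Golgi membrane protein gene on the opposite strand, overlaps *Carm1* by 3942 bases, and had 471 and 309 counts at PD100 and 547 and 529 at PD800 (log2 fold change 0.59, edgeR, adjusted p = 0.0133). The division of reads in this overlap is uncertain. No other member's length differed by over 5%, beside 14.4% of all tested genes, and that of *Prmt7* differed by 1.48% without overlap.

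Both type II members were lower at PD800. *Prmt5*, the main source of symmetric dimethylarginine, had 6270 and 5277 counts at PD100 and 4527 and 3952 at PD800, or 155 and 158 CPM against 126 and 123 CPM. The PD100 libraries were close to each other and both above the PD800 libraries, with a log2 fold change of -0.33 (SE 0.07). *Prmt9*, which methylates the splicing factor SF3B2, stood at 46.3 and 54.5 CPM at PD100 and 32.4 and 34.8 CPM at PD800. Its log2 fold change of -0.58 (SE 0.10) was the lowest of the family. The 40 genes nearest to *Prmt9* on chromosome 8 had a median log2 fold change of -0.49, with 5 of 40 above 0, and those nearest to *Prmt5* on chromosome 14 had a median of -0.28, with 10 of 40 above 0.

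*Prmt7*, the type III member, stood at 100.2 and 120.2 CPM at PD100 and 89.0 and 94.5 CPM at PD800. The groups did not overlap, the spread within PD100 was larger than the gap between the groups, and the log2 fold change was -0.26 (SE 0.11). The neighbours of *Prmt7*, which lies on chromosome 8 some way from *Prmt9*, had a median of 0.03 over 40 genes and -0.40 over 20 genes, so that its surroundings had no stable sign. The neighbour medians of *Prmt1*, *Prmt2*, *Prmt3* and *Carm1* were 0.08, -0.10, 0.21 and 0.15. *Carm1* lay 0.60 below the median of its neighbours, on the log2 scale, the largest such gap below among the 9 members. Of all members, *Prmt2*, *Carm1*, *Prmt5*, *Prmt7* and *Prmt9* kept a negative log2 fold change under every alternative tried, and *Prmt6* and *Prmt8* a positive one.

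Summed over the family, the level was 236 and 224 TPM at PD100 and 190 and 180 TPM at PD800. The type I members summed to 145 and 134 TPM at PD100 and 128 and 121 TPM at PD800, and the type II members to 64.6 and 60.5 TPM against 42.4 and 39.4 TPM. The sums for the family and for each type were lower at PD800 without overlap, on a scale on which the median gene was lower too. In shares of the family's TPM, *Prmt8* went from 0.107% ± 0.0257 to 3.36% ± 0.0441 (SD, n = 2) and *Prmt6* from 2.92% ± 0.350 to 5.16% ± 0.167. *Prmt5* went from 21.4% and 20.6% in single libraries to 18.1% and 17.3% and *Prmt9* from 6.23% ± 0.355 to 4.40% ± 0.222. The share of *Prmt1*, 38.4% and 37.0% at PD100 and 38.7% and 38.9% at PD800, differed less between the groups than between the PD100 libraries.

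**Figure D4:**
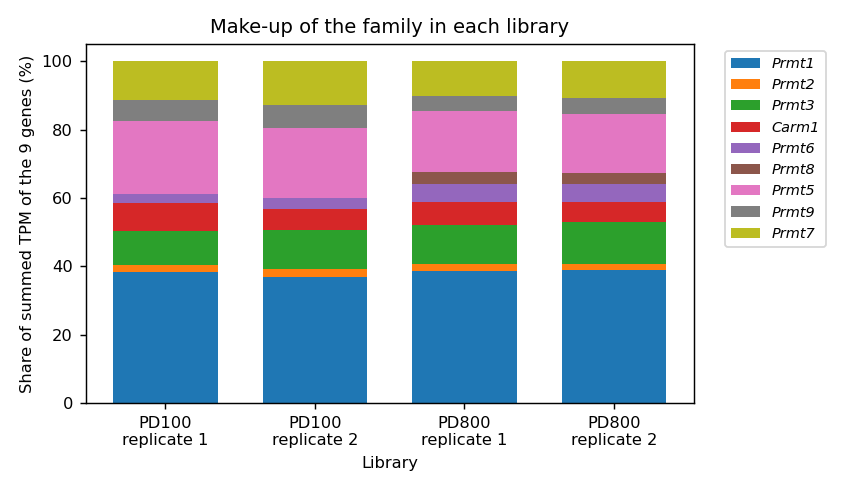
Share of each member in the summed TPM of the family, in percent, for each of the 4 libraries. *Prmt1* held 37.0% to 38.9% in every library, while *Prmt8* held 0.0889% and 0.125% at PD100 and 3.39% and 3.33% at PD800.

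The genes around the enzymes were taken as 4 lists, 74 genes in all, of which 69 could be tested in the same fit. Over the 4 lists, 3 genes rose (4.35%) and 5 fell (7.25%), beside 6.28% and 8.81% of all tested genes, with a median log2 fold change of -0.10. Shares so near those of all genes are no result about the lists, and the genes named from them are given for their own values. These calls carry p-values, since the family was not chosen on them, although the lists too were drawn up with results of these data known. The 7 partners of the enzymes all passed the filter, and 1 of them fell, with a median of 0.12. *Btg2*, an antiproliferative cofactor of *Prmt1*, fell from 76.9 and 78.7 CPM to 35.7 and 36.0 CPM (log2 fold change -1.12, SE 0.07, edgeR, adjusted p = 0.000161). *Btg1* of the same list went the other way, from 34.5 and 34.9 CPM to 45.9 and 44.6 CPM. Its log2 fold change of 0.38 (SE 0.07, edgeR, adjusted p = 0.00773) stayed under the fold threshold. *Wdr77*, the obligate partner of *Prmt5* in the methylosome, stood at 128 and 144 CPM at PD100 and 183 and 189 CPM at PD800. It was higher by 0.45 on the log2 scale (SE 0.09, edgeR, adjusted p = 0.00806) and under the fold threshold, with 0.10 to 0.52 over the alternatives. On log2(TPM + 1) and log2(TPM + 0.1) *Wdr77* was at 0.10 and 0.11 and did not pass (limma, adjusted p = 0.350 and 0.358). *Prmt5* and *Wdr77* thus lay in opposite directions, and their ratio in TPM was 1.44 and 1.35 at PD100 and 0.922 and 0.840 at PD800. The substrate adaptors of *Prmt5* did not pass, with log2 fold changes of -0.06 for *Clns1a*, 0.12 for *Riok1* and -0.19 for *Coprs* (edgeR, adjusted p = 0.550, 0.332 and 0.274). That of *Coprs* was -0.03 without PD100 replicate 2 and -0.36 without PD100 replicate 1, and that of *Riok1* turned to -0.07 and -0.08 on the TPM scales.

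Among readers of methylarginine and enzymes that act on arginine, 14 of 17 genes were tested, 1 rose (7.14%) and 4 fell (28.6%), beside 6.28% and 8.81% of all tested genes, with a median of -0.12. Those that fell were *Tdrd1*, *Tdrd7*, *Tdrkh* and *Padi3*. The first 3 hold Tudor domains, as do *Tdrd3*, *Tdrd5*, *Tdrd9*, *Smn1*, *Smndc1* and *Snd1* of the same list, which were not called, and *Tdrd6*, which could not be tested. *Tdrd1* fell from 7.08 and 6.77 CPM to 2.25 and 2.02 CPM, by 1.69 on the log2 scale (edgeR, adjusted p = 0.000427). *Tdrd7* fell by 1.24 (edgeR, adjusted p = 0.000525) and *Tdrkh* by 1.05 (edgeR, adjusted p = 0.00458). Of the 5 peptidylarginine deiminases, which turn arginine into citrulline, *Padi3* and *Padi4* were called, in opposite directions. *Padi2* was not called, at 0.51 (edgeR, adjusted p = 0.0419), and *Padi1* and *Padi6* could not be tested. *Padi3* fell from 2.90 and 2.97 CPM to 1.06 and 1.09 CPM (log2 fold change -1.45, edgeR, adjusted p = 0.00202), and *Padi4*, known from chromatin of pluripotent cells, rose from 0.817 and 0.899 CPM to 2.45 and 2.27 CPM (log2 fold change 1.46, edgeR, adjusted p = 0.00271). *Padi3*, *Padi4* and *Tdrkh* did not keep their calls when either PD800 library was left out, with edgeR adjusted p-values of 0.0117 to 0.0287, and *Tdrkh* was at -0.91 without PD100 replicate 2. On log2(TPM + 1) none of the genes called in this list kept its call, with *Tdrd1* at -0.69, *Tdrd7* at -0.99, *Tdrkh* at -0.79, *Padi3* at -0.50 and *Padi4* at 0.38. *Tdrd3*, a reader at transcribed chromatin, was at -0.11 (edgeR, adjusted p = 0.325), *Tdrd5* at -0.08 (edgeR, adjusted p = 0.693) and *Tdrd9* at 0.74 (edgeR, adjusted p = 0.154). *Jmjd6*, reported as an arginine demethylase and a lysyl hydroxylase, was at -0.14 (edgeR, adjusted p = 0.184).

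In the supply of the methyl donor and the metabolism of methylarginine, 15 of 17 genes were tested, with a median of 0.02. Of these, 1 rose (6.67%) and none fell, beside 6.28% and 8.81% of all tested genes. The one that rose was *Bhmt*, which remethylates homocysteine with betaine, from 0.248 and 0.270 CPM to 3.39 and 3.58 CPM (log2 fold change 3.74, SE 0.24, edgeR, adjusted p = 0.000156). On log2(TPM + 1) it was at 0.83 and not called, and it did not enter the test with at least 10 counts in every library. *Mat2a*, which makes S-adenosylmethionine in these cells, was at 237 and 236 CPM at PD100 and 256 and 257 CPM at PD800 (log2 fold change 0.12, edgeR, adjusted p = 0.240, and -0.14 on both TPM scales). *Ahcy*, which removes the inhibitory product of methylation, was at 181 and 230 CPM at PD100 and 122 CPM in both PD800 libraries. Its log2 fold change of -0.75 (SE 0.12, edgeR, adjusted p = 0.00435) stayed under the fold threshold on counts, but it was called lower on log2(TPM + 0.1), at -1.02 (limma, adjusted p = 0.00591). With no fold threshold, 3 genes of this list were higher and 4 lower at an adjusted p under 0.01. Of all tested genes, 13.1% and 15.4% were. The lower genes were *Sms* at -0.92, *Amd1* at -0.88, *Ahcy* and *Srm* at -0.63. The higher genes were *Bhmt*, *Ddah1* at 0.62 and *Mtr* at 0.47.

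All 33 genes of known substrates were tested, of which 1 rose and none fell, with a median of -0.16. *Alyref*, an mRNA export factor, rose from 168 and 185 CPM to 485 and 534 CPM (log2 fold change 1.53, SE 0.10, edgeR, adjusted p = 0.000145). With no fold threshold, substrates that were higher at an adjusted p under 0.01 included *Alyref*, *Cirbp*, *Chtop* and *Terf2*, and 3, *Trp53bp1*, *Pabpc1* and *Piwil2*, were lower. *Terf2* encodes the shelterin protein TRF2, which binds telomeric repeats, and it stood at 0.48 on the log2 scale.

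**Figure D5:**
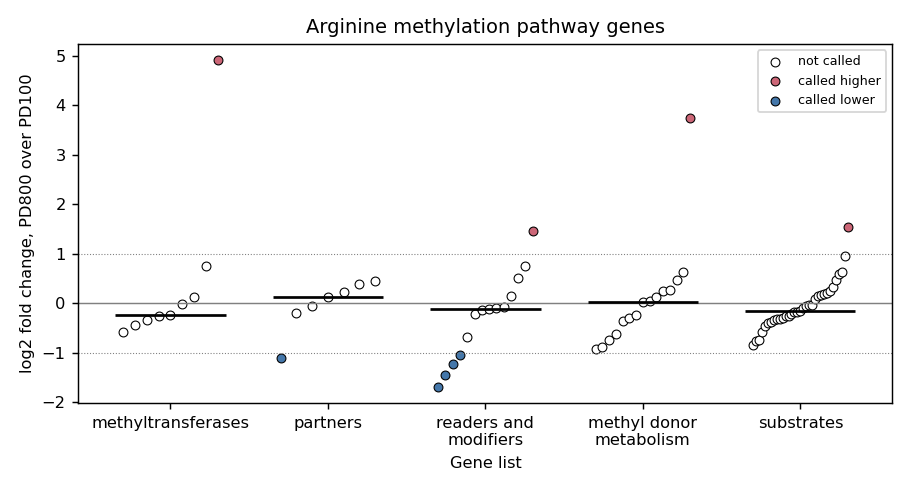
The log2 fold change (PD800 over PD100) of the 9 methyltransferase genes and of each tested gene of the 4 lists, with 1 point per gene, called genes coloured, a bar at each list's median and dotted lines at a fold change of 2. Among the 4 lists *Bhmt* at 3.74 and *Tdrd1* at -1.69 are the extremes, and 61 of the 69 genes were not called.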

How the data were processed

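RNA of 4 libraries of mESCs was sequenced by the authors as read pairs. The authors aligned the reads to mm10 with STAR 2.5.3a and deposited, per gene and library, the expected count of RSEM 1.3.0, which divides reads that align to several genes and is not scaled for depth. The deposited TPM values are scaled for length and to a common total, and the deposited length is the mean over isoforms weighted by their share. The submitters' processing notes also name DESeq2 1.18.1. The annotation release and the strand setting of the counting are not given in the sources used here. Of the gene identifiers, 53274 were found in GENCODE M21 without their version numbers, which gave coordinates and transcripts.

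Rounded expected counts went into the quasi-likelihood test of edgeR 4.0.16 (R 4.3.3) after TMM scaling, for the 19148 genes left by filterByExpr at its minimum count of 10, and p-values were adjusted by Benjamini-Hochberg over these genes. Groups were taken from the labels. With 2 libraries against 2, an exact permutation test cannot give a p below 0.333, so p-values rest on the spread edgeR estimates across genes. Replicates differed by more than sampling noise, with a chi-square per degree of freedom of 57.9 at PD100 and 9.13 at PD800, and mitochondrially encoded genes took 11.0% to 17.7% of the counts. The procedure was tested on simulated data.

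The members and gene lists were chosen with earlier results of these data known. Named genes were the 9 members, *Wdr77*, *Clns1a*, *Riok1*, *Coprs*, *Mat2a*, *Ahcy*, *Jmjd6*, *Padi4* and *Tdrd3*, up to 4 called genes per list and direction, the 3 genes most like the member with the highest fold change, its nearest tested neighbours, and *Terc*. Genes overlapping members or similar to them, single markers, substrates and the other list genes were named after their values were seen. The labels give no sequencing batch. Sequences were compared with blastn 2.17.0 and Biopython 1.88, and promoters were taken from RefSeq. Alternatives were DESeq2 1.42.0, other scalings and filters, limma 3.58.1 on log2(TPM + 1) and log2(TPM + 0.1), a replicate block, another threshold, 20 neighbours, and each library left out in turn.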

Additional observations from a re-analysis of the deposited data

How the results depend on the processing

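*Prmt8* was the 1 member called higher, and none was called lower, under every alternative that kept the thresholds. With an adjusted p under 0.05 and no fold threshold, 2 of the 9 members were higher and 3 lower. So were 4224 and 4515 of the 19148 tested genes and 13 and 22 of the 69 tested pathway genes, and nothing is read from these counts. Of all genes, 1202 were called higher and 1686 lower, against 297 and 920 by limma on log2(TPM + 1) and 533 and 1779 on log2(TPM + 0.1). Pathway genes, 3 higher and 5 lower, came to 1 higher and 5 lower on the first of these scales, of which the 1 and 1 of the 5 (*Alyref* and *Btg2*) were among those called on counts, and to 10 lower on the second, and leaving out 1 library gave 2 to 4 higher and 3 to 5 lower, with 3 lower without either PD800 replicate. The same omissions gave 880 to 1514 genes higher and 1274 to 1893 lower, where a lone library is assumed to vary like the other group. Lifting the expression filter, which left 32384 genes in the test, gave 1639 higher and 2237 lower.

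Some signs turned. *Prmt1* went from -0.01 to 0.0049 with upper-quartile normalisation, 0.0028 without PD800 replicate 1, and lay between -0.0911 and 0.0613 when 1 library was left out. On the TPM scales with 1 and 0.1 added, *Prmt3* went to -0.14 and -0.14, *Riok1* to -0.0726 and -0.0774, *Mat2a* to -0.14 and -0.14, and *Cracr2a*, at 0.95 on counts, to -0.0310 and -0.14. The cause was not tested. With 20 in place of 40 neighbours, the medians were -0.00906 for *Prmt2*, 0.26 for *Prmt3*, 0.82 for *Prmt8*, -0.54 for *Prmt5*, -0.61 for *Prmt9* and -0.40 for *Prmt7*.

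The labels number the replicates without saying that a number marks a shared culture or day, and deviations of same-numbered libraries correlated at 0.388. A fit with this number as a replicate block called 1461 genes higher and 1956 lower, and the member and pathway counts with the fold threshold were the same as without it. With the adjusted p alone, 3 members, *Carm1*, *Prmt5* and *Prmt9*, were lower under the block against 1 without it. Low counts limit the *Prmt8* level at PD100, where 28 and 34 counts set the fold change, and 2 libraries per group limit every estimate of spread.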
